A study of Mus musculus with 8 samples.

Results

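The 52 genes described here copy DNA and drive the cell cycle. They were chosen by name and function, with earlier results of these data known. Their roles are origin licensing, helicase activation, polymerases with their sliding clamp and clamp loader, E2F transcription factors, cyclins with their kinases, mitotic genes, and 4 others. Each gene was represented by the probe set that matches it alone and had the highest mean log2 signal over the 8 arrays. Of the 52, 51 were found among the 18193 genes measured in this way, and 44 of them were among the 14237 genes in the upper 66.7% of probe sets by mean signal, where tests were run. Ccnb1 had no such probe set in the table used and was not analysed here. The 7 measured members below that signal were Gins1, Rfc3, Pola1, Ccne2, Bub1, Aurkb and Tyms.

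Granulocytic myeloid-derived suppressor cells (Gr-MDSCs), neutrophil-like cells that restrain T cells, had been taken from prostate tumors of CPPSML mice, which are PB-Cre+ with floxed PtenL/L, p53L/L and Smad4L/L alleles and carry the reporters mTmGL/+ and LSL-LucL/+, aged 12 to 16 weeks by the labels. The males had been castrated once their tumor reached 150 mm3 and fed enzalutamide, an androgen receptor blocker, for 4 weeks, in all groups alike. PB-Cre acts in prostate epithelium, so the floxed tumor suppressor genes are lost there and not by design in the Gr-MDSCs. The cells were isolated with magnetic beads as CD11b+ Ly6G+ Ly6C low and kept for 6 h in DMSO (4 samples, numbered 2 to 5), in 0.1 uM Dactolisib, an inhibitor of PI3K and mTOR (2 samples), or in 0.1 uM Dasatinib, an inhibitor of Src and Abl family tyrosine kinases (2 samples). One array was run per sample. No source used here says whether samples came from separate or pooled animals, so the p-values reflect no more than how far these samples spread, and that spread may be technical.

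Before a cell divides, Orc and Cdc6 with Cdt1 load the Mcm helicase onto origins in G1, and Gmnn blocks Cdt1 once S phase has begun. Cdc45, the Gins subunits and Mcm10 turn the loaded helicase on, and polymerases held by the Pcna clamp copy the strands. Cyclin D with Cdk4 or Cdk6 releases E2F factors from the retinoblastoma family, and E2F switches on many of the replication genes. Mature neutrophils have left the cell cycle, while their bone marrow precursors divide.

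Replication genes often carry E2F sites near their start, and genes of late cell cycle phases often carry the CHR element with CCAAT boxes. RefSeq promoters (build GRCm38.p6) were at hand for 40 of the 52 members. In the 250 bases before the outermost start, an E2F site (TTTCCCGC, TTTGGCGC or TTTCGCGC, either strand) was found in 10 of the 40 members (25.0%) and in 1.59% of all 27025 promoters. A CCAAT box (CCAAT, either strand) was in 26 of 40 (65.0%) against 34.5%. The CHR letters TTTGAA were in 8 of 40 (20.0%, against 16.3%) and TTTAAA in 6 of 40 (15.0%, against 12.1%). These matches describe the letters only. The 4 promoters below belong to the members that passed the test under Dactolisib within array sets and had a promoter at hand, and the 5th such member, Ccnd2, had none. Capitals mark the motifs just named, and each run reads 5′ to 3′ on the strand of the gene and ends at the base before its start.

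Mcm7 (chr5:138171884-138172133, minus strand): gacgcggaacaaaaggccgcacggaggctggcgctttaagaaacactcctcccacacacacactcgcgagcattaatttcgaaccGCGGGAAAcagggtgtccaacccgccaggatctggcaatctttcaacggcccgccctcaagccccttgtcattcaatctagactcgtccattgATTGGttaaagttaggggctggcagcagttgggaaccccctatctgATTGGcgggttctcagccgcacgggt

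Mcm10 (chr2:5012792-5013041, minus strand): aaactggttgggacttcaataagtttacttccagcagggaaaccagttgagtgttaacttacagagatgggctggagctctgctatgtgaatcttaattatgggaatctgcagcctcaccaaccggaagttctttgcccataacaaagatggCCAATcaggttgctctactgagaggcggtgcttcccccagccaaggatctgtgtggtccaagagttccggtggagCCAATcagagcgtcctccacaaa

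Tmpo (chr10:91171620-91171869, minus strand): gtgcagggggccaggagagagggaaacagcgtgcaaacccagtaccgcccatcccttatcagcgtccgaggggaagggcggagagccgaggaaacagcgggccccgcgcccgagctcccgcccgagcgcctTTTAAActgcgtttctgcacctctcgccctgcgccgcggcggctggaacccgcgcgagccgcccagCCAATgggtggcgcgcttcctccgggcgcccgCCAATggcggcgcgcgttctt

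E2f2 (chr4:136172024-136172273, plus strand): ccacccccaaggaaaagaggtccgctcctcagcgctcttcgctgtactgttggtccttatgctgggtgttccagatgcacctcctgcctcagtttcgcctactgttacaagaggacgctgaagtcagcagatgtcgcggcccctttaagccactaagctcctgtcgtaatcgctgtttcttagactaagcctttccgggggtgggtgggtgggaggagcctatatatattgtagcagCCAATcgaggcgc

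Of these 4, only Mcm7 held an E2F site, GCGGGAAA read on its own strand, beginning 165 bases before the start. Tmpo held the CHR letters TTTAAA. All 4 held at least 1 CCAAT box.

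The arrays were clustered by correlation and cut into 3 sets, a number taken from earlier results of these data. The sets cut across treatment and were the same with the members' probe sets left out of the clustering. Set A held Dactolisib 1, DMSO 2 and DMSO 4, set B held Dactolisib 2, Dasatinib 2 and DMSO 3, and set C held Dasatinib 1 and DMSO 5. Computed over probe sets, Pearson's r was at least 0.987 for arrays of the same set and at most 0.980 for arrays of different sets. The sets were cut from these same correlations, so that gap is no separate evidence for them. Epithelial markers, foreign to a granulocyte, averaged 8.31 to 8.46 (set A), 6.48 to 6.77 (set B) and 10.07 to 10.23 (set C) on the log2 scale over 23 measured markers, 10 of which lay above all silent reference genes on all arrays. The 14 measured markers of mature granulocytes averaged 11.38 to 11.53, 11.07 to 11.16 and 10.56 to 10.82 in the same order, and 13 of them lay above all silent reference genes on all arrays. The 12 measured markers of monocytes and macrophages averaged 7.52 to 7.74, 7.75 to 7.92 and 8.06 to 8.24 in that order, and 7 of them lay above all silent reference genes on all arrays. RNA of mature granulocyte markers was thus present on every array, with epithelial RNA and RNA of monocyte and macrophage markers beside it. CD11b and Ly6C, used in the isolation, were not on the list of mature granulocyte markers. What a set stands for is not given in the sources used here. Each comparison is therefore given without a block, as in the methods of the study, and within array sets, where the set is a term of the linear model. Because the sets were formed from the same arrays, drug arrays included, p-values within sets may come out too low.

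The members' levels were read against 22 measured genes that are silent outside their own tissue, such as insulin, albumin, opsins and protamines. The highest of those 22 lay at a log2 signal of 6.25 to 6.78, depending on the array. Both ends of that span were values of 1 gene, Prm1, while the median of the 22 gene means was 4.65. A member below this top can thus still lie above most silent genes, as Mcm4 did at a mean of 6.22. The name of the Prm1 probe set marks it as one that may match more than 1 transcript. The next highest silent gene, Ins2, reached 6.33 at most. The members Gins4, Mcm10 and Tmpo stayed above that value on every array, with lowest signals of 6.57, 6.44 and 6.43. Probe sets differ in how well they bind, so a signal in the range of the silent genes does not show that a gene is off. On all 8 arrays 10 of the 51 members (19.6%) lay above every silent gene, 7 did so on some arrays and 34 on none. Among all 18193 genes the share above on all 8 arrays was 27.9%.

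The 10 members above that range on all arrays were Cdt1 and Mcm7 of origin licensing, Pcna and the clamp loader subunit Rfc2, the factor E2f2, the G1 genes Cdk4, Cdk6, Ccnd2 and Ccnd3, and the proliferation antigen Mki67. Those in the silent range on every array included the rest of the Mcm helicase apart from Mcm6 on 1 array, both Orc genes, Cdc6, Cdc45, the polymerases, cyclins A and B, Cdk1, Top2a, the Aurora kinases, Plk1, Bub1 and Birc5. The arrays carried clear signal for G1 kinases with D cyclins, for 2 licensing genes and for Pcna, Rfc2, E2f2 and Mki67. The polymerase members and the mitotic members other than Mki67 had no signal above the silent range. Of 49 measured mitotic genes outside the list, 8 lay above that range on all 8 arrays and 38 on none. Among the 8 were Pttg1 at 10.22 to 12.24 and Cks2 at 10.19 to 11.53. Of 43 measured replication genes outside the list, 9 lay above it on all 8 arrays (beside 27.9% of all genes) and 24 on none. Those 9 included Fen1 at 8.83 to 9.15 and the polymerase subunits Pold3 at 7.13 to 7.38 and Pold4 at 7.35 to 8.17. Of the 8 measured markers of early granulocytes, 6 lay in the silent range on all arrays, among them Mpo, Elane, Prtn3 and Ctsg at 3.93 to 5.63. The other two, Chil3 at 5.90 to 8.04 and Serpinb1a at 5.52 to 8.73, were above that range on some arrays.

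**Figure D1:**
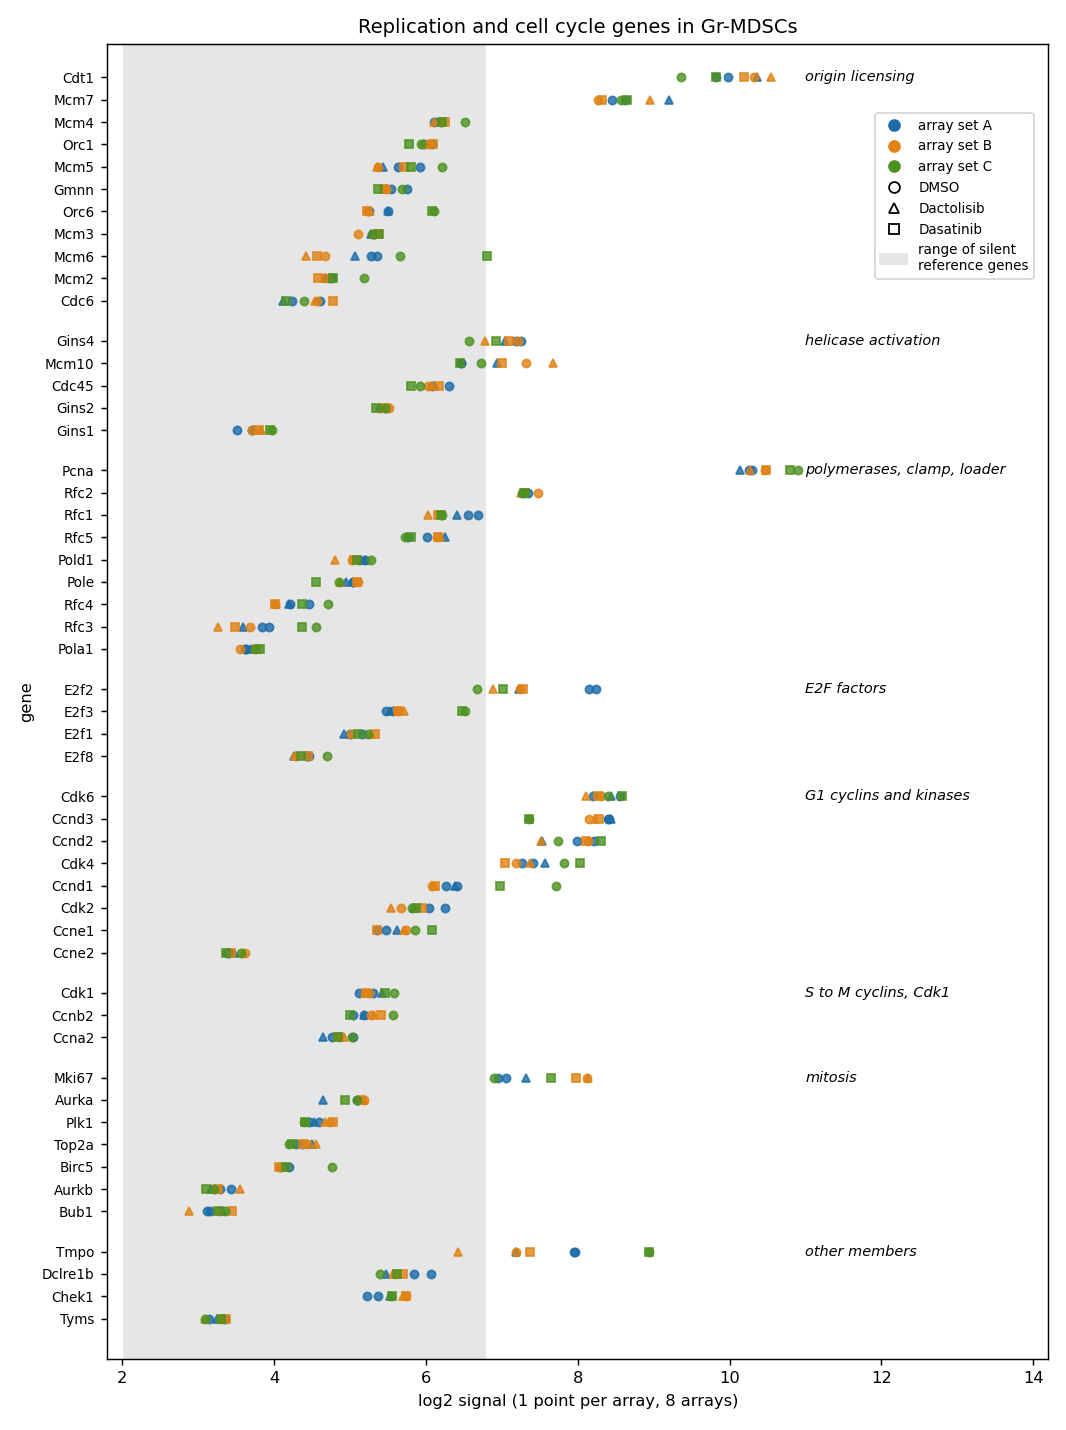
Log2 signal of the 51 measured members on each of the 8 arrays, by role, with 1 point per array, color for the array set and shape for the treatment. The gray band spans the 22 silent reference genes over all arrays, from 2.03 to 6.78. Most S phase and mitotic genes lie inside it, and Cdt1, Mcm7, Pcna, Cdk4, Cdk6, Ccnd2, Ccnd3 and Mki67 lie to its right.

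Licensing genes were read first. Cdt1, the loader of the helicase, had log2 signals of 9.97, 10.32, 9.82 and 9.36 on DMSO 2, 3, 4 and 5, 10.37 and 10.55 on Dactolisib 1 and 2, and 9.82 and 10.18 on Dasatinib 1 and 2. Mcm7, a subunit of the helicase, had 8.46, 8.27, 8.62 and 8.57 on DMSO 2 to 5, 9.21 and 8.96 on the Dactolisib arrays and 8.65 and 8.32 on the Dasatinib arrays. Both Dactolisib arrays lay above all 6 others for each of these genes. Mcm2, another subunit and a usual marker of cycling cells, stayed between 4.58 and 5.19 on all 8 arrays. Mcm6, the member of this group with the widest DMSO range, lay at 5.36, 4.67, 5.28 and 5.66 on DMSO 2 to 5, at 5.07 and 4.42 under Dactolisib, and at 6.81 and 4.57 under Dasatinib.

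Of the helicase activators, Gins4 of the GINS complex had 7.25, 7.21, 7.19 and 6.57 on DMSO 2 to 5, 7.05 and 6.77 under Dactolisib and 6.92 and 7.09 under Dasatinib. Mcm10, which acts as the helicase starts, had 6.46, 7.32, 6.47 and 6.73 on DMSO 2 to 5, 6.93 and 7.68 under Dactolisib and 6.44 and 7.0 under Dasatinib. For Mcm10 the treatments overlap when the sets are pooled, while within sets A and B the Dactolisib array was the highest. Pcna, the sliding clamp, had 10.26, 10.46, 10.30 and 10.90 on DMSO 2 to 5, 10.14 and 10.26 under Dactolisib and 10.80 and 10.49 under Dasatinib. Rfc3 of the clamp loader, not in the signal filter, ranged from 3.26 to 4.55.

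E2f2, one of the activating E2F factors, had 8.14, 7.25, 8.24 and 6.68 on DMSO 2 to 5, 7.22 and 6.88 under Dactolisib and 7.02 and 7.28 under Dasatinib. E2f1, the best known of them, stayed between 4.92 and 5.33, in the silent range.

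Among the G1 genes Cdk6, a kinase partner of cyclin D, lay between 8.11 and 8.59 on all 8 arrays. Ccnd3, the cyclin D3 gene, had 8.41, 8.15, 8.41 and 7.35 on DMSO 2 to 5, 8.44 and 8.23 under Dactolisib and 7.36 and 8.27 under Dasatinib, so the lower values are those of set C. Ccnd1, the cyclin D1 gene, ran the other way with 6.41, 6.08, 6.27 and 7.71 on DMSO 2 to 5, 6.38 and 6.11 under Dactolisib and 6.98 and 6.12 under Dasatinib. Ccnd2, the cyclin D2 gene, had 8.22, 8.13, 8.00 and 7.74 on DMSO 2 to 5, 7.54 and 7.52 under Dactolisib and 8.30 and 8.11 under Dasatinib. The 2 Dactolisib arrays were the lowest of the 8 for Ccnd2.

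Mki67, a nuclear protein of cycling cells, had 6.95, 8.13, 7.06 and 6.90 on DMSO 2 to 5, 7.32 and 8.14 under Dactolisib and 7.64 and 7.98 under Dasatinib. All 3 arrays of set B lay above the other 5, whatever the treatment. Top2a, the topoisomerase that untangles chromosomes, stayed between 4.20 and 4.56. Cdk1, the mitotic kinase, lay between 5.12 and 5.58, and Ccnb2, its cyclin B2 partner, between 5.0 and 5.57.

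Tmpo, which encodes lamina-associated polypeptide 2 of the nuclear envelope, had 7.97, 7.18, 7.95 and 8.93 on DMSO 2 to 5, 7.19 and 6.43 under Dactolisib, and 8.93 and 7.38 under Dasatinib. Its order by set was that of the epithelial markers: set C above set A above set B, apart from Dactolisib 1, which lay with set B. Over all tested members 10 were higher in set C than on the 6 other arrays (Ccnd1, Ccne1, Cdk1, Cdk4, E2f3, Mcm2, Mcm6, Orc6, Pcna and Tmpo) and 7 were lower (Ccnd3, Cdc45, Cdt1, Orc1, Plk1, Pole and Top2a), beside 24.6% and 29.4% of all tested genes. Set B was above the 5 others for 5 members (Aurka, Chek1, Mcm10, Mki67 and Plk1) and below them for 5 (Ccnd1, Mcm6, Pold1, Rfc1 and Rfc4), beside 11.5% and 11.3% of all tested genes. All 4 counts are out of 44 tested members. The part of epithelial RNA in these levels was not tested, and in bulk RNA more cells of a type and more RNA per cell cannot be told apart.

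**Figure D2:**
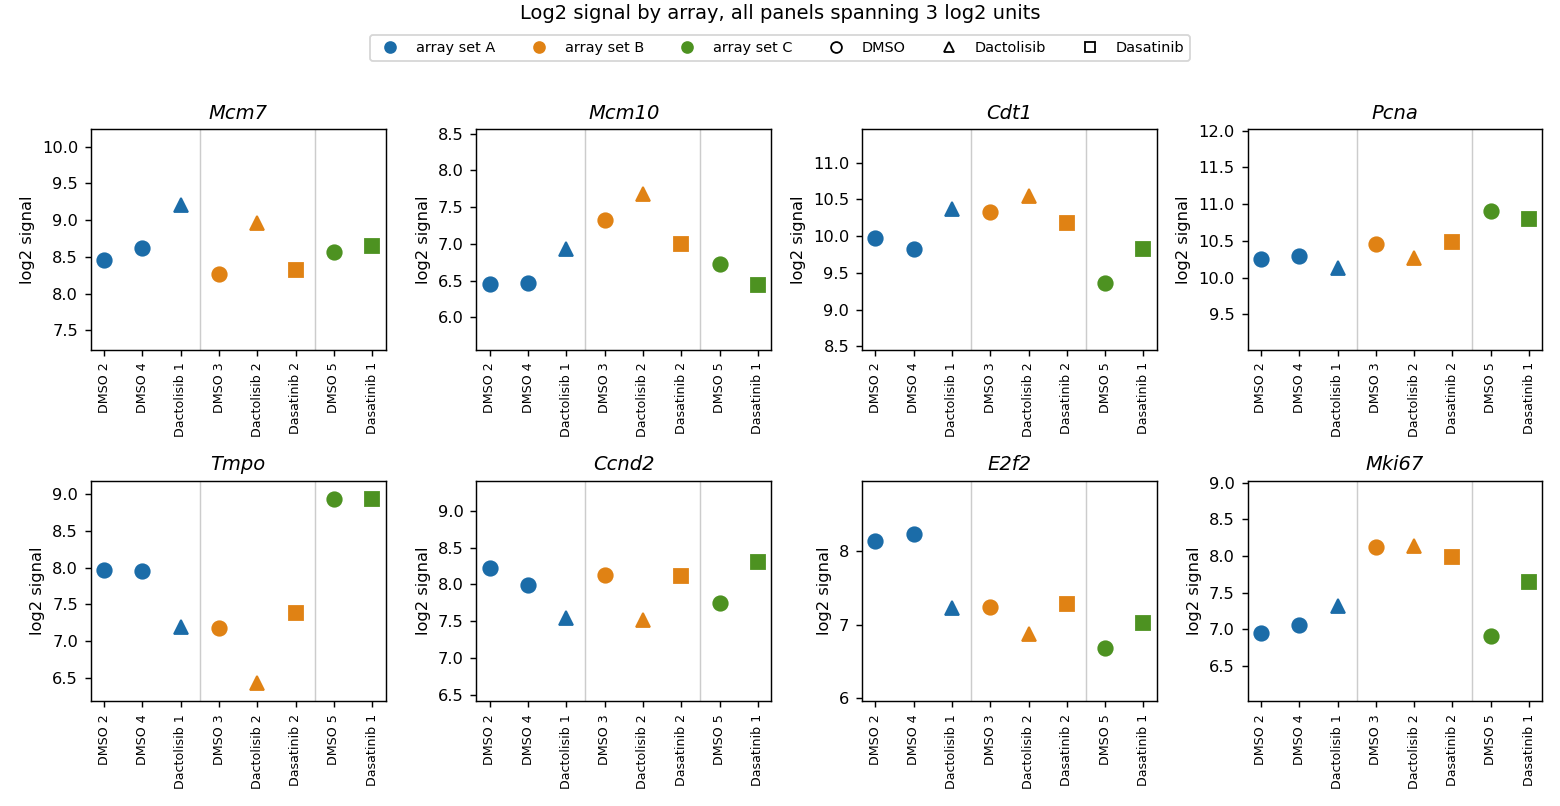
Log2 signal of 8 members on each array, arrays ordered by set with gray lines between sets, color for the set and shape for the treatment, each panel spanning 3 log2 units. Within sets A and B the Dactolisib array is the highest for Mcm7, Mcm10 and Cdt1 and the lowest for Tmpo, Ccnd2 and E2f2, while Mki67 is higher on all of set B and Pcna on all of set C.

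Under Dactolisib 5 of the 44 tested members passed within array sets, with changes of both signs. Mcm7 and Mcm10 were higher, and Tmpo, Ccnd2 and E2f2 were lower. In limma with the set as a term, Mcm7 was higher by 0.68 ± 0.08 (SE, log2 scale, adjusted p = 0.0112) and Mcm10 by 0.42 ± 0.08 (limma adjusted p = 0.027). Tmpo differed by -0.76 ± 0.08 (limma adjusted p = 0.00941), Ccnd2 by -0.59 ± 0.09 (limma adjusted p = 0.0182) and E2f2 by -0.71 ± 0.14 (limma adjusted p = 0.0277). The first pair acts at replication origins, and the other three lie in the nuclear envelope, at the G1 kinase and in the E2F switch. Of the 6 members with the lowest p, Cdt1 was the one that did not pass, with a difference of 0.36 ± 0.09 (limma adjusted p = 0.066). That is 3 members lower and 2 higher, 11.4% of those tested, beside 4.66% of all tested genes lower and 2.24% higher. The list was chosen with earlier results of these data known, so these shares are not read as a trait of the list. At an unadjusted p below 0.05 the counts were 6 lower and 4 higher, beside 15.1% and 9.17% of all genes. This fit has 2 residual degrees of freedom and rests on Dactolisib 1, Dactolisib 2 and the DMSO arrays of their sets: without Dactolisib 1, Dactolisib 2 or DMSO 3, no member passed.

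Without the block no member passed under Dactolisib, and no gene of the 14237 did (0%). The lowest limma adjusted p of a member was 0.775, the methods' t-test called 0 after Benjamini-Hochberg adjustment, and at an unadjusted p below 0.05 limma gave 2 members lower (Ccnd2 and Tmpo) and 1 higher (Mcm7), beside 3.72% and 2.73% of all genes. Mcm7 differed by 0.61 ± 0.14, Ccnd2 by -0.50 ± 0.15, Tmpo by -1.20 ± 0.48 and Cdt1 by 0.59 ± 0.26 (SE), all at a limma adjusted p of 0.775. The epithelial markers also differed in this comparison, with a median of -1.08 without the block and -0.11 within array sets. With their mean as a covariate Tmpo differed by -0.72 without the block (limma adjusted p = 0.538). Within array sets 2 of 23 epithelial markers passed, both lower (8.7%, beside 4.66% of all tested genes). On both Dactolisib arrays 12 were lower and 1 higher, beside 35.4% and 31.6% of all tested genes. With the same covariate Mcm7 differed by 0.70 (limma adjusted p = 0.538) and Ccnd2 by -0.58 (limma adjusted p = 0.554). The marker means follow the array sets, so markers and set cannot be told apart. The part of these markers was not tested for any member.

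Each drug array was also set against the mean of the DMSO arrays of its own set. For Mcm7 these differences were 0.67 on Dactolisib 1 and 0.69 on Dactolisib 2, for Mcm10 0.47 and 0.35, and for Cdt1 0.47 and 0.22. For Tmpo they were -0.77 and -0.76, for Ccnd2 -0.57 and -0.62, and for E2f2 -0.97 and -0.37. The sizes were close on both arrays for Mcm7, Tmpo and Ccnd2, and E2f2 differed more in set A. Over the list 18 of 44 members were lower on both Dactolisib arrays and 13 higher on both, beside 35.4% and 31.6% of all tested genes. The median over the 51 measured members was -0.01 on each Dactolisib array, where the median over all genes was -0.01 and 0.01. A difference over 0.5 in either direction was found for 4 members on Dactolisib 1 and 3 on Dactolisib 2. The share of all genes past 0.5 was not computed, so nothing is read from these counts.

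Counts by role stand beside 35.4% of all tested genes lower on both Dactolisib arrays and 31.6% higher, and nothing particular to a role is read from them. In the licensing group 5 of 11 were lower on both (Orc1, Cdc6, Gmnn, Mcm5 and Mcm6) and 3 higher (Mcm7, Cdt1 and Orc6). Mcm7 was the 1 subunit of the Mcm helicase that was higher on both. Mcm6, for example, was lower by 0.25 on each array and did not pass (within-set difference -0.25 ± 0.08, limma adjusted p = 0.103). Of the clamp, loader and polymerase genes 5 of 9 were lower on both (Pcna, Rfc1, Rfc2 and Pole among those tested, and Rfc3), and none of those tested passed. Of the G1 genes Ccnd2 and Cdk2 were lower on both, and Ccnd1, Ccnd3 and Cdk4 higher, the last by 0.23 and 0.18. Of the 7 mitotic genes Aurka was lower on both and Mki67, Top2a and Birc5 higher, with differences of 0.31 and 0.01 for Mki67 and 0.17 and 0.13 for Top2a.

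**Figure D3:**
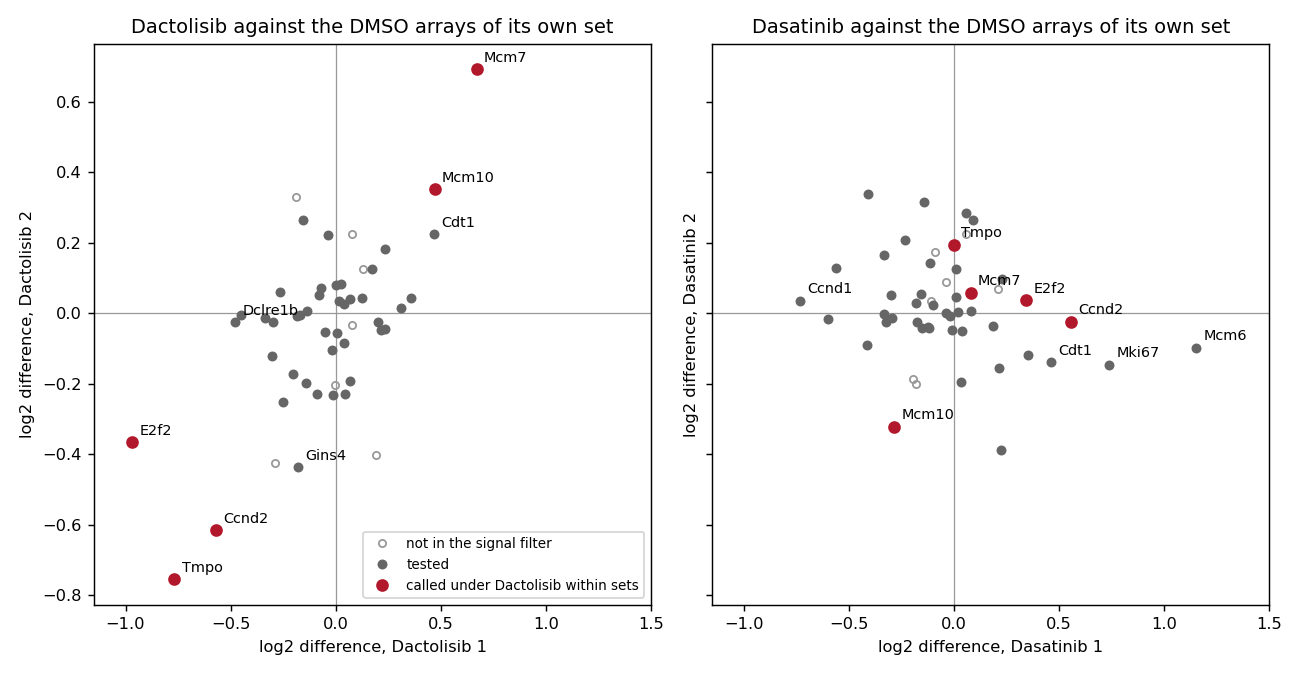
Difference in log2 signal between each drug array and the mean of the DMSO arrays of its own set, with replicate 1 on the x axis and replicate 2 on the y axis, for Dactolisib on the left and Dasatinib on the right. Each point is 1 of the 51 measured members, open where it was not in the signal filter and red for the 5 that passed under Dactolisib within array sets. Mcm7 and Mcm10 lie at the upper right and Tmpo, Ccnd2 and E2f2 at the lower left for Dactolisib, while under Dasatinib Mcm6 lies at 1.15 on replicate 1 and -0.10 on replicate 2.

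Most members had more than 1 probe set (38 of 51, 121 probe sets in all), which gives a second reading on the same RNA. All 4 probe sets of Mcm7 passed under Dactolisib within array sets, with own-set differences between 0.44 and 0.73, although their names mark several of them as matching more than 1 transcript. All 7 of Ccnd2 passed, with own-set differences between -0.37 and -0.72. Both of E2f2 passed, and the dimmer one differed by -1.08 ± 0.08 (limma adjusted p = 0.00935). Tmpo was less uniform: 2 of its 5 tested probe sets passed, the second by -1.04 ± 0.09 (limma adjusted p = 0.00935), while the fifth, at a mean signal of 4.63, was slightly higher on both arrays. The second probe set of Cdt1 passed with 0.43 ± 0.10 (limma adjusted p = 0.0491) and the second of Mcm10 did not, with 0.25 ± 0.08 (limma adjusted p = 0.12). Dclre1b, a nuclease that protects telomeres, did not pass by its main probe set (-0.28 ± 0.12, limma adjusted p = 0.217), and its second one, at a mean signal of 4.01 and within the silent range, differed by -1.42 ± 0.09 (limma adjusted p = 0.00935). Dclre1b was singled out after these values were seen.

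**Figure D4:**
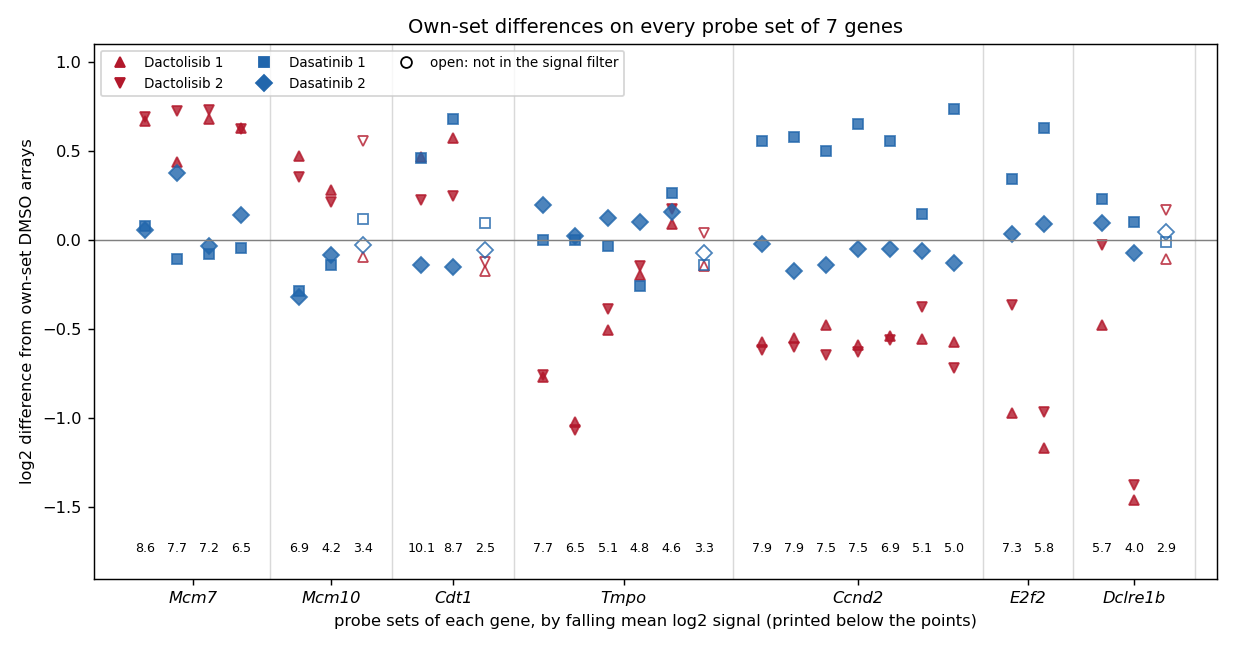
Own-set differences in log2 signal on every probe set of 7 members, in order of falling mean signal, which is printed under each. Red triangles are the Dactolisib arrays and blue symbols the Dasatinib arrays, open where the probe set was not in the signal filter. All probe sets of Mcm7 lie above 0 and all of Ccnd2 and E2f2 below 0 on both Dactolisib arrays, while those of Tmpo and Dclre1b differ among themselves.

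Under Dasatinib no member passed in either fit, and neither did any other gene (0%). Mcm10 came nearest within array sets, at -0.30 ± 0.10 (SE, limma adjusted p = 0.85). It was the 1 member at an unadjusted p below 0.05 and was lower, beside 2.1% of all tested genes lower and 1.86% higher. Mcm2 (-0.25 ± 0.11), Birc5 (-0.31 ± 0.15), Mcm6 (0.53 ± 0.26), Ccnd1 (-0.35 ± 0.18) and Mcm3 (0.18 ± 0.10) followed at the same limma adjusted p of 0.85. Without the block 0 members had an unadjusted p below 0.05 in limma, beside 0.162% of all genes lower and 0.14% higher. The methods' t-test called 0 after Benjamini-Hochberg adjustment. Gmnn (-0.20 ± 0.13), Mki67 (0.55 ± 0.38), Rfc1 (-0.24 ± 0.18) and Ccnd2 (0.18 ± 0.17) had the lowest p without the block, each at a limma adjusted p of 1.

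Several members had unlike differences on the 2 Dasatinib arrays. On Dasatinib 1, of set C, 6 members lay over 0.5 from DMSO 5, the lone DMSO array of that set, and on Dasatinib 2 none lay over 0.5 from DMSO 3. The share of all genes past 0.5 was not computed for these arrays either. Mcm6 stood 1.15 above DMSO 5 on Dasatinib 1 and 0.10 below DMSO 3 on Dasatinib 2. Ccnd1 differed by -0.73 and 0.04, Mki67 by 0.74 and -0.15, and Ccnd2 by 0.56 and -0.02. With Dasatinib 2 or DMSO 3 left out, Mcm6 and Mki67 passed, each higher, but either omission leaves Dasatinib 1 against DMSO 5 alone, 1 array each, with the spread taken from DMSO 2 and DMSO 4 of another set. Mcm10 was the steadier case, at -0.29 and -0.32 on its main probe set. Its second probe set, at a mean signal of 4.21, differed by -0.14 and -0.08. Over the list 12 members were lower on both arrays and 9 higher on both, beside 22.8% and 21.9% of all tested genes, and the median over measured members was -0.04 and 0.00, where that over all genes was 0.01 and -0.01.

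The drugs were compared directly in a fit of all 8 arrays. No member passed within array sets or without the block, and no gene did (0%). Within array sets the lowest limma adjusted p of a member was 0.0788, shared by Tmpo (Dactolisib minus Dasatinib -0.89 ± 0.11) and Mcm10 (0.71 ± 0.10), and Mcm7 had 0.62 ± 0.11 (limma adjusted p = 0.0907). Ccnd2 differed by -0.78 ± 0.17 (limma adjusted p = 0.12), E2f2 by -0.74 ± 0.19 (limma adjusted p = 0.16) and Cdk2, the kinase of cyclins E and A, by -0.40 ± 0.13 (limma adjusted p = 0.226). At an unadjusted p below 0.05 the direct fit gave 5 members lower and 2 higher under Dactolisib, beside 9.78% and 5.07% of all genes. Without the block it gave 1 lower (Ccnd2, -0.68 ± 0.18) and 1 higher (Mcm7, 0.60 ± 0.18), beside 2.4% and 1.44%, all at a limma adjusted p of 0.841, with Tmpo at -1.35 ± 0.66 and Pcna at -0.44 ± 0.23. The methods' t-test called 0 after Benjamini-Hochberg adjustment. Set C holds no Dactolisib array and set A no Dasatinib array, so within sets the drugs meet on the same set only in set B.

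Genes of the same processes outside the list were read in the same way. Above every silent gene on all 8 arrays were 9 of 43 measured replication genes, 8 of 49 mitotic genes and 11 of 35 cell cycle regulators, beside 27.9% of all genes. The counts called under Dactolisib within array sets stand beside 4.66% of all tested genes lower and 2.24% higher, and nothing particular to these lists is read from them. Of 38 tested further replication genes 3 passed, all lower (7.89%): Dna2, a nuclease and helicase that trims Okazaki fragments (-0.92 ± 0.09, limma adjusted p = 0.00941), Pole4 of polymerase epsilon (-0.40 ± 0.08, limma adjusted p = 0.0307) and Rpa3 of the single-strand binding complex (-0.37 ± 0.08, limma adjusted p = 0.041). Rnaseh2c, of the enzyme that removes RNA from DNA, had -0.33 ± 0.08 (limma adjusted p = 0.0532). Dna2 had log2 signals of 8.24, 7.32, 8.04 and 6.16 on DMSO 2 to 5, 7.22 and 6.40 on Dactolisib 1 and 2, and 6.29 and 7.31 on Dasatinib 1 and 2, and in both sets the Dactolisib array was lower by 0.92.

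Of 34 tested further mitotic genes 2 passed, both lower (5.88%, beside 4.66% of all tested genes): Bub3 of the spindle checkpoint (-0.38 ± 0.08, limma adjusted p = 0.0344) and Kif23, a motor of cytokinesis (-0.37 ± 0.08, limma adjusted p = 0.041). Cks2, a partner of Cdk1, had -0.34 ± 0.09 (limma adjusted p = 0.0724) and Cks1b -0.61 ± 0.20 (limma adjusted p = 0.117). Of 31 tested cell cycle regulators 2 were lower (6.45%) and 1 higher (3.23%, beside 2.24% of all tested genes). Cyclin G1 (Ccng1, a p53 target) had -0.72 ± 0.10 (limma adjusted p = 0.0138) and Rbl1, the retinoblastoma relative p107, -0.44 ± 0.08 (limma adjusted p = 0.0271), while cyclin G2 (Ccng2, known from cells leaving the cycle) had 0.44 ± 0.08 (limma adjusted p = 0.0261). Lin54, of the complex that binds the CHR element, had 0.28 ± 0.08 (limma adjusted p = 0.0941). Under Dasatinib none of these genes passed within array sets (at an unadjusted p below 0.05, 1 replication gene, 2 mitotic genes and 2 regulators, all lower, beside 2.1% of all tested genes).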

How the data were processed

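RNA of Gr-MDSCs was hybridised to Affymetrix arrays: 4 of DMSO, 2 of Dactolisib and 2 of Dasatinib, 8 in all. The authors deposited log2 signals for 45101 probe sets, and these were used without further scaling (array medians 4.82 to 4.87). For the signal summary, MAS5 stands in the submitters' processing notes and oligo in the methods of the paper. Groups were read from the titles, because the treatment field of both Dasatinib samples reads Dactolisib. Of the probe sets 34945 match 1 gene, 932 several and 9160 none, and 64 are controls.

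Tests covered 30024 probe sets, the upper 66.7% in mean signal. R 4.3.3 and limma 3.58.1 (lmFit and eBayes) gave p-values, adjusted over all of these by Benjamini-Hochberg with a threshold of 0.05, with and without the array set as a term, on 6 arrays for a drug against DMSO and on 8 for the drugs. The methods' t-test was run on the same values and adjusted in the same way, whereas the study itself called genes by unadjusted p. Standard errors are those of limma. Array sets came from hierarchical clustering (average linkage, Pearson correlation distance) without the members' probe sets. The code was tested on simulated data. The number of arrays limits the precision.

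Members, gene lists, sets and tests were chosen with earlier results of these data known. Values are given for members with the lowest p in each comparison (6 within sets, or all that passed; 4 without the block), for the member of each role with the highest mean and with the widest DMSO range, for Mki67, Top2a, Mcm2, Pcna, Ccnd1, Ccnd3 and Cdk6, and for up to 4 genes of each further list. Marker lists of early granulocytes, monocytes and macrophages, stroma and lymphocytes were also read: in the Dactolisib comparison within array sets, 3 of the 12 markers of monocytes and macrophages passed, as did 2 of 14 of mature granulocytes, all lower (beside 4.66% of all tested genes), and none of the 8 early granulocyte, 10 stromal and 8 lymphocyte markers tested did. Alternatives are given in the closing section.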

Additional observations from a re-analysis of the deposited data

Results flagged for a closer look

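Among the 4 DMSO samples, 7 of the 51 measured members had 1 sample far from the others by Dixon's criterion for 4 samples. Chance alone meets it in about 1 of 20 groups if the 4 samples are alike, which arrays of different sets are not. The share of all genes that met it was not computed, so nothing is read from this count. Mki67 lay at a log2 signal of 8.13 on DMSO 3, against 6.90 to 7.06 on the others. DMSO 3 was also apart for Aurka, with 5.19 against 5.09 to 5.10, and for Mcm3, with 5.11 against 5.30 to 5.32. DMSO 5 was apart for the other 4: Mcm2 at 5.19 against 4.67 to 4.76, E2f3 at 6.51 against 5.47 to 5.64, Birc5 at 4.76 against 4.08 to 4.19, and Gins4 at 6.57 against 7.19 to 7.25. DMSO 3 and DMSO 5 are the lone DMSO arrays of sets B and C, and epithelial markers averaged 6.59 and 10.23 on them against 8.46 and 8.42 on DMSO 2 and DMSO 4. The part of those markers in these gaps was not tested.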

How the results depend on the processing

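Without the block, no member was called under any alternative run. Within array sets, the 5 members called under Dactolisib became 4 with quantile normalization (E2f2 lost, limma adjusted p = 0.059), 7 with 32 added before log2 or with the upper 33.3% of probe sets only (Cdt1 and Gins4 added), 6 with a trended and robust prior (Cdt1 added) or with the mean of probe sets (Dclre1b added), and 3 with all 8 samples in one fit (Ccnd2 and E2f2 lost, limma adjusted p = 0.0735 and 0.0609). Leaving out 1 sample gave 0 to 6 calls, and 0 without Dactolisib 1, Dactolisib 2 or DMSO 3, where the comparison rested on 1 drug array against DMSO of its set, and that array was taken to vary like the others. The 5 members kept their direction in all of these. Under Dasatinib leaving out 1 sample gave 0 to 2 calls, the 2 resting on Dasatinib 1 against DMSO 5 alone. Across these Mcm6 ran from -0.0978 to 1.15 and Ccnd1 from -0.733 to 0.0361, and each changed sign without Dasatinib 1 or DMSO 5. In the direct comparison 3 members (Tmpo, Mcm10 and Mcm7) passed with 32 added, with the upper 33.3% only and with the trended and robust prior, and leaving out 1 sample gave 0 to 5, the 5 without Dasatinib 2, where Dasatinib 1 alone stood for the drug (Ccnd2, Mcm6 and Tmpo lower, Ccnd1 and Mcm10 higher). The causes were not tested.

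The members' median under Dactolisib without the block (-0.10) was -0.0507 with quantile normalization, -0.0484 with 32 added, -0.0407 with the mean of probe sets and -0.0268 with epithelial markers as a covariate, and -0.0953 to -0.0397 with 1 sample left out. Within array sets (-0.02) it was -0.0191 with quantile normalization, -0.0111 with 32 added, 0.00257 with the mean of probe sets, -0.0548 with all 8 samples, and -0.0572 to -0.00133 with 1 sample left out. In the direct comparison without the block (-0.08) it was -0.0229 with quantile normalization, -0.0358 with 32 added, -0.0359 with the covariate and -0.0757 to -0.0289 with 1 sample left out, and within array sets (-0.03) it was -0.012 with quantile normalization, -0.0211 with 32 added, -0.0113 with the mean of probe sets, and -0.0785 to 0.0765 with 1 sample left out. Under Dasatinib it ran from -0.05 to 0.01 without the block and from -0.04 to 0.00 within array sets with 1 sample left out.

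A drug and DMSO share only replicate number 2, so no paired analysis was possible for them because fewer than 2 numbers are shared. For the drugs, the replicate block on the 4 drug samples called 0 members, at a median of -0.08. The drug samples alone leave no residual degrees of freedom within array sets, and that fit was not run. The DMSO means of Cdt1, Mcm6, Mcm10, Cdk6, Tmpo, Top2a and Ccnd3 moved by over 1 SD with the mean of probe sets, to 6.94, 3.81, 4.74, 7.67, 5.48, 3.97 and 7.03. Signals near the silent range limit what can be read from most members.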
